A study of Mus musculus with 2 samples.

Results

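In spleens of aged mice, a small set of CD8 T cells carried RNA of at least 2 of the genes Izumo1r, Cd200, Ikzf2 and Ctla4, and these cells, called marker-positive cells here, were described across 2 libraries. To be counted, a cell also had no Cd4 UMI, at least 1 UMI (unique molecular identifier, a count of 1 captured RNA molecule) of Cd8a or Cd8b1, fewer than 2 UMIs of Gzmk, and none of Fcer1g or Klrb1c. Cells were first kept at 500 or more detected genes and at most 10% mitochondrial UMIs. Of 13620 kept cells, 240 were marker-positive, 157 of 5619 in the old recipient library and 83 of 8001 in the young donor library. Since the members were chosen by their measured RNA, the levels of the rule's own genes are given as a description and support nothing.

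The old recipient cells were CD45.2+ CD3e+CD8a+ splenocytes of wild-type CD45.2 C57BL/6J mice, 24 months old at transfer and 25 months old at harvest. The young donor cells were CD45.1+ CD3e+CD8a+ splenocytes recovered from such aged hosts, 1 month after total CD8 T cells of wild-type CD45.1 C57BL/6J mice aged 3 months had been purified and transferred. Both groups had therefore lived in an aged host for the last month, and the donor cells alone had been isolated and transferred. There was 1 library per group, so age, CD45 allele and transfer cannot be told apart from library, nothing was tested between groups, and intervals cover counting error alone. The labels did not say whether the libraries came from 1 mouse, from the same mouse or from pools.

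Izumo1r encodes folate receptor 4, a surface protein found on regulatory T cells and on self-tolerant CD4 T cells called anergic. Cd200 encodes a surface ligand of an inhibitory receptor, Ctla4 an inhibitory receptor that competes with CD28 for its ligands, and Ikzf2 the transcription factor Helios, which is found in most regulatory T cells and in some T cells that have met self antigen. Myb encodes a transcription factor needed by stem-like T cells. Inhibitory receptors of this kind are also found on CD8 T cells that have been stimulated repeatedly.

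The label under which these cells were proposed, Izumo1r Cd200 Helios CD8 cells, held only in part. Izumo1r and Ctla4 were detected in 132 and 117 of 157 recipient cells, and in 64 and 73 of 83 donor cells. Cd200 was detected in 48 recipient and 20 donor cells, and Ikzf2 in 67 (42.7%) recipient and 12 (14.5%) donor cells. The most common combination was Izumo1r with Ctla4 and neither of the others, in 62 recipient cells (39.5%) and 55 donor cells (66.3%). Helios RNA and Cd200 RNA were thus each found in a minority of the cells in both libraries. In the donor library most cells carried Izumo1r and Ctla4 alone, whereas most recipient cells carried Ikzf2, Cd200 or both. The rule itself asked for CD8 RNA of either chain. Cd8a was detected in 92.4% and Cd8b1 in 97.5% of recipient cells, and in 94.0% and 100% of donor cells, and Cd3e stood at 1032 and 979 CPM (counts per 1000000, the UMIs of a gene scaled to a fixed total of all UMIs in the same cells). Cd4 had no UMI in any kept recipient cell and 3 UMIs in 2 kept donor cells, and the Cd4 filter removed no cell with 2 marker genes.

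Median depth was similar in marker-positive and other cells, and more of the marker-positive ones were very deep. The median was 6512 UMIs in the recipient's marker-positive cells and 7062.5 in its other cells, and 8060 against 7927.5 in the donor. Above the 95th percentile of other cells lay 22 (14.0%) of the recipient's and 13 (15.7%) of the donor's marker-positive cells. A simulated doublet score marked 10 of 157 and 11 of 83 of them, against 278 (4.95%) and 550 (6.87%) of all kept cells. The marked share was thus larger among marker-positive cells in both libraries, more so in the donor. Marked cells were left in, and counts without them are given with the alternatives. The libraries shared 105 barcodes, which 3 recipient and 1 donor marker-positive cells carried. RNA of Ighm, the immunoglobulin mu heavy chain gene, was widespread, with UMIs in 63.1% of marker-positive and 53.9% of other recipient cells and in 65.1% and 56.0% in the donor; at 3500 UMIs per cell the shares were 47.3% and 36.5%, and 35% and 35%. The part of Ighm RNA and of depth in the results was not tested.

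The share of marker-positive cells was 2.79% (95% exact binomial interval 2.38 to 3.26) of old recipient cells and 1.04% (0.827 to 1.28) of young donor cells. Among cells that passed all other filters, exactly 2 marker genes were found in 114 recipient and 81 donor cells, 3 in 36 and 1, and all 4 in 7 and 1. Just outside the rule, 730 recipient and 551 donor cells carried 1 marker gene and 3278 and 5971 carried none. A further 114 recipient and 44 donor cells had 2 or more marker genes but failed another filter, mostly the one on Gzmk (104 and 40 cells). With every cell thinned to 3500 UMIs before the rule, the shares were 1.70% and 0.491%. With 3 marker genes required, 43 recipient cells (0.765%) and 2 donor cells (0.025%) were left.

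The promoters of 3 of the marker genes are shown because these genes define the cells. They run in GRCm38.p6 from 250 bases before to 50 bases after the RefSeq start, 5′ to 3′ on the gene's strand, with GGAAA and its complement TTTCC, the core motif of NFAT factors, in capitals. The Izumo1r promoter lies at chr9:14903718-14904017 (minus strand), that of Cd200 at chr16:45409004-45409303 (minus strand) and that of Ctla4 at chr1:60908775-60909074 (plus strand).
Izumo1r: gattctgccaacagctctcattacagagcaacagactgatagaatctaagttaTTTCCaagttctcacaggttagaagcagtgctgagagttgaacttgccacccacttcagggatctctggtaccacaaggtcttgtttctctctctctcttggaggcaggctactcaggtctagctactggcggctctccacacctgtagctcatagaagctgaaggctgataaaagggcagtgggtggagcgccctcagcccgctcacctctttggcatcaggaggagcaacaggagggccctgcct
Cd200: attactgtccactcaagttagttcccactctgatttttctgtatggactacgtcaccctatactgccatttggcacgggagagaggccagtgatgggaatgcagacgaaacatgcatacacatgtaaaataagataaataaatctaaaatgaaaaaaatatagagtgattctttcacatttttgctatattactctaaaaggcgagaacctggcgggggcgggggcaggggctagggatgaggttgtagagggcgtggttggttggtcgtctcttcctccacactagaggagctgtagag
Ctla4: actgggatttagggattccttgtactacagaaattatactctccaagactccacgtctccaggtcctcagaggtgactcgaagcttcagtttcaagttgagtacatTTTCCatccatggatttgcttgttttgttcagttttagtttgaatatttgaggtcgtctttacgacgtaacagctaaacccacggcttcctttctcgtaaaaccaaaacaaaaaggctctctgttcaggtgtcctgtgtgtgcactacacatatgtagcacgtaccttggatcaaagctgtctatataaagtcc
The NFAT core was found 1 time for Izumo1r, 1 time for Ctla4 and 0 times for Cd200, and 61.3% of 32851 RefSeq promoters of this length hold it on either strand. Ctla4 also held CTTTGA (the core of TCF and LEF factors, in 16.003% of promoters) and TATAAA (in 13.6%) on one of its strands. TGANTCA (AP-1, in 7.81%) and AAAGGTCA (NR4A, in 1.51%) were in none of these 3 windows. A match is a description of the letters and not a binding site.

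Levels of the marker genes are given in CPM, with UMIs summed over all cells of a group in a library. Izumo1r (chromosome 9, 14885814 to 14903949) had 274 CPM in marker-positive and 17.0 in other recipient cells, and 157 against 4.06 in the donor. Ctla4 (chromosome 1, 60887000 to 60915832) had 186 against 17.0 CPM in the recipient and 191 against 11.1 in the donor. Marker-positive cells of both libraries thus held Ctla4 at like levels, while their Izumo1r was higher in the recipient. Cd200 (chromosome 16, 45382135 to 45409053) had 63.0 against 2.53 CPM in the recipient and 38.8 against 0.692 in the donor. Ikzf2 (chromosome 1, 69531214 to 69687245) had 110.4 against 15.2 CPM in the recipient and 24.1 against 3.24 in the donor.

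**Figure D1:**
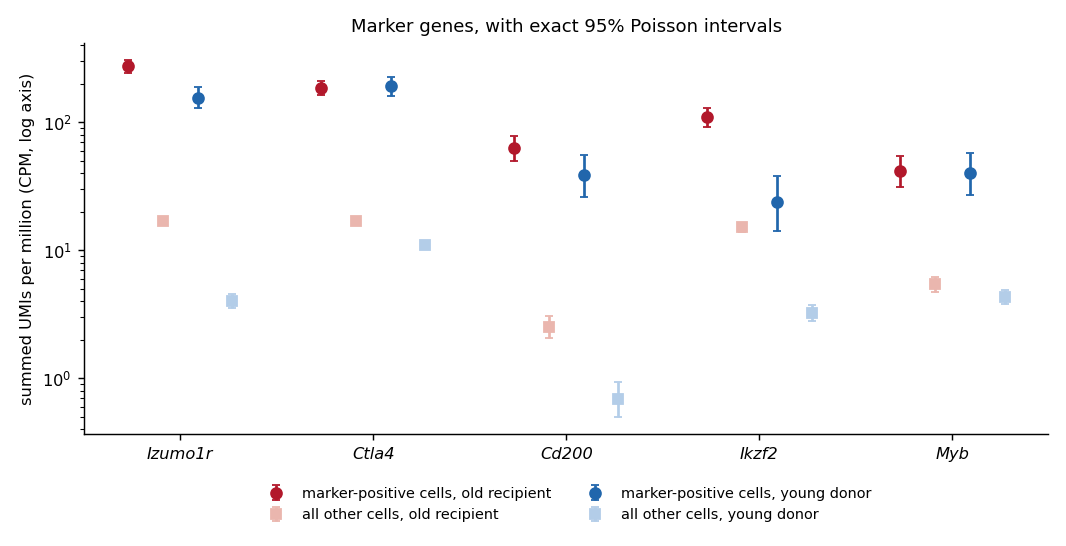
Summed CPM (log axis) of the 4 genes of the rule and of Myb in marker-positive cells (circles) and all other cells (squares) of the old recipient (red) and young donor (blue), with exact 95% Poisson intervals. Ctla4 and Myb stood at like levels in marker-positive cells of both libraries (186 and 191, 41.7 and 40.1 CPM), while Ikzf2 was at 110.4 and 24.1 CPM.

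Myb, which was named as a marker of these cells but was not used by the rule, was higher in them in both libraries. It had 41.7 CPM in marker-positive and 5.46 in other recipient cells, a log2 ratio of 2.93 with a 95% interval of [2.46, 3.38]. The donor values were 40.1 and 4.34 CPM, a log2 ratio of 3.21 [2.61, 3.76]. At an equal depth of 3500 UMIs, Myb was found in 12.3% of marker-positive and 1.53% of other recipient cells, and in 11.3% and 1.15% in the donor. So most marker-positive cells gave no Myb UMI at that depth.

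Over all genes with a mean of at least 20 CPM, few separated marker-positive from other cells by 2-fold in both libraries. Of 4646 such genes, 24 (0.517%) were at least 2-fold higher and 15 (0.323%) at least 2-fold lower in both, and the higher ones include the 4 genes of the rule. Beside these 4, the higher genes include Myb, Icos, Slamf6, Lag3 and Id3, and the lower ones Ccl5, Il18r1, Gzmm and Tbx21. The median log2 ratio over these genes was 0.11 in the recipient and 0.04 in the donor. When other cells had to pass the same filters as the marker-positive ones, 34 genes were higher and 8 lower, of which 20 and 7 were also in the first counts.

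Surface receptors were among the higher genes. Icos, a costimulatory receptor of follicular helper and regulatory T cells, had 77.7 CPM in marker-positive and 21.5 in other recipient cells, and 64.2 against 20.8 in the donor, log2 ratios of 1.85 [1.53, 2.16] and 1.63 [1.18, 2.05]. Slamf6 (Ly108), a SLAM family receptor kept by stem-like T cells, had 190.5 against 80.7 CPM in the recipient and 169.9 against 53.8 in the donor, ratios of 1.24 [1.04, 1.43] and 1.66 [1.39, 1.92]. Tspan32, a tetraspanin, had ratios of 1.58 and 1.95. RNA of these 3 genes was thus higher in marker-positive cells of both libraries, and Slamf6 was the most widely detected of them, in 60.5% of recipient and 71.1% of donor marker-positive cells. Lag3, an inhibitory receptor that binds MHC class II, had 75.2 against 27.7 CPM in the recipient and 68.2 against 12.3 in the donor, ratios of 1.44 [1.12, 1.75] and 2.47 [2.03, 2.88]. Itgae, the CD103 integrin chain, had 65.4 against 29.9 CPM in the recipient and 50.8 against 10.7 in the donor, ratios of 1.13 [0.78, 1.46] and 2.25 [1.74, 2.72]. The recipient ratio of Itgae was below 2-fold against cells passing the same filters (0.87) and without the 16 recipient cells with Foxp3 (0.55).

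Among transcription factors, Id3, an inhibitor of E proteins in T cells with long-lived or stem-like potential, had 222 CPM in marker-positive and 76.5 in other recipient cells, and 246 against 65.4 in the donor. Its log2 ratios were 1.54 [1.35, 1.72] and 1.91 [1.69, 2.13]. Pou2f2 (Oct-2), a POU domain factor best known from B cells, had 116 against 43.0 CPM in the recipient and 122 against 36.1 in the donor, ratios of 1.43 and 1.75. Cd79a, Ms4a1 and Pax5, which define B cells, were at 0 UMIs in marker-positive cells of both libraries. The remaining named genes were Capg, an actin capping protein (1.41 and 1.62), Ephx1, an epoxide hydrolase (1.31 and 2.09), Cenpa, the centromeric histone (1.22 and 1.35), Ifi27l2a, an interferon-induced gene (1.12 and 1.80), and Smc4, a condensin subunit (1.01 and 1.13). Cenpa rested partly on 1 recipient cell with 23 of 68 UMIs, and its recipient ratio was 0.69 without the cell highest in it.

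**Figure D2:**
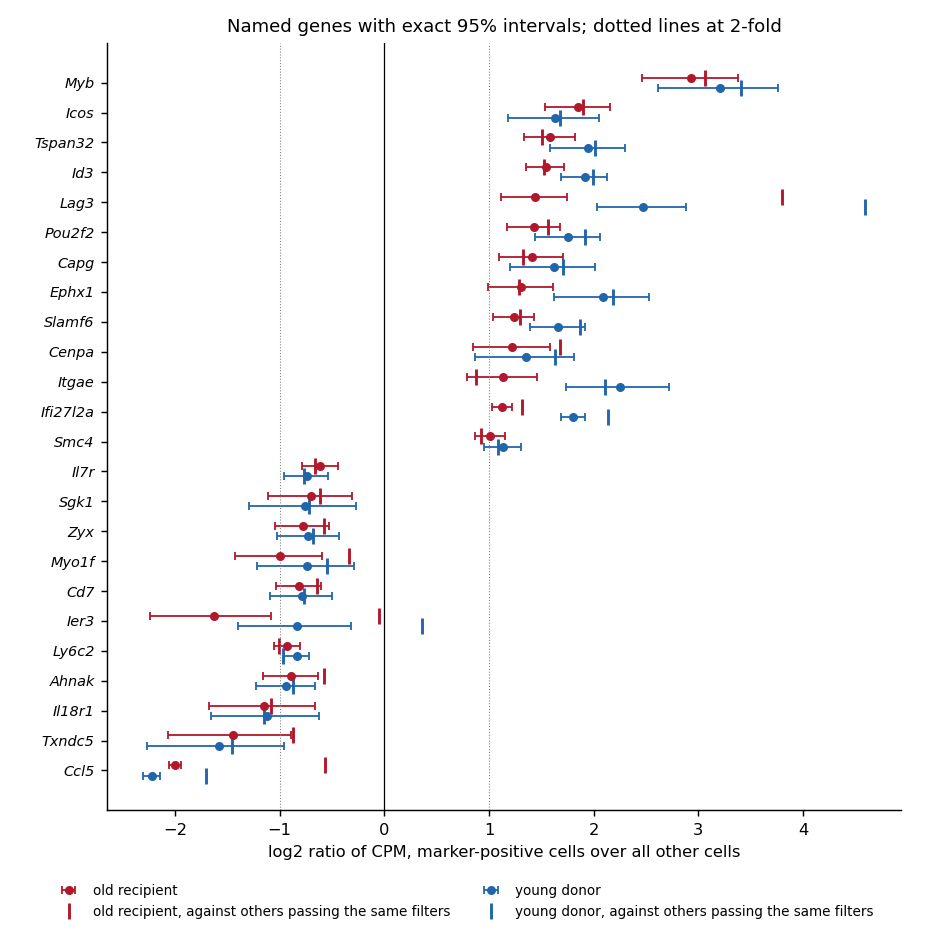
Log2 ratio of CPM in marker-positive over all other cells for Myb and genes named by rule, in the old recipient (red) and young donor (blue), with exact 95% intervals (circles and bars) and the ratio against other cells that pass the same filters (vertical ticks). Lag3 moved to 3.80 and 4.59 and Ccl5 to -0.57 and -1.70 with that comparison, and Ier3 to -0.05 and 0.36.

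Several genes of memory CD8 T cells were lower. Ccl5, a chemokine stored by memory CD8 T cells, had 2032 CPM in marker-positive and 8139 in other recipient cells, and 1709 against 7968 in the donor, log2 ratios of -2.002 [-2.06, -1.95] and -2.22 [-2.30, -2.14]. Il18r1, the IL-18 receptor chain, had 27.8 against 61.5 CPM and 44.2 against 96.0, ratios of -1.15 and -1.12. Ly6c2, the memory-associated surface protein Ly6C, had ratios of -0.93 and -0.84. Ccl5 UMIs were present in 46.5% of the recipient's and 44.6% of the donor's marker-positive cells, against 68.4% and 80.9% of other cells. The Gzmk filter of the rule bears on this: among other cells passing the same filters, the Ccl5 ratios were -0.57 and -1.70, whereas those of Ly6c2 were -1.01 and -0.96 and those of Il18r1 -1.08 and -1.15. Txndc5, an endoplasmic reticulum disulfide isomerase (-1.45 and -1.58), the scaffold gene Ahnak (-0.89 and -0.94), Cd7 (-0.82 and -0.79), the motor gene Myo1f (-0.996 and -0.74), the adhesion gene Zyx (-0.78 and -0.72), the kinase gene Sgk1 (-0.70 and -0.76) and Il7r, the IL-7 receptor (-0.62 and -0.74), were lower in both libraries too. Against cells passing the same filters, the ratios were -0.87 and -1.45 for Txndc5, -0.58 and -0.87 for Ahnak and -0.34 and -0.55 for Myo1f, and those of Cd7, Zyx, Sgk1 and Il7r lay between -0.77 and -0.57. Ier3, an immediate early gene, had ratios of -1.63 and -0.83, which were -0.05 and 0.36 against cells passing the same filters.

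Exhaustion-associated genes depended on the same comparison. Against all other cells, Pdcd1 (PD-1) had log2 ratios of 0.79 [0.26, 1.28] in the recipient and 1.17 [0.38, 1.86] in the donor, Tigit 0.16 [-0.27, 0.55] and -0.24 [-1.08, 0.49], and Tox 0.52 [0.23, 0.80] and 0.66 [0.23, 1.06]. Against cells passing the same filters these were 3.09 and 3.30 for Pdcd1, 3.46 and 1.75 for Tigit, and 1.36 and 1.53 for Tox. Cells with 2 or more marker genes and at least 2 Gzmk UMIs, which the rule leaves out, were far richer in such RNA: the 104 recipient cells of this kind held 339 CPM of Lag3 and 165 of Pdcd1, and the 40 donor cells 302 and 155. Marker-positive cells held 28.6 and 22.7 CPM of Pdcd1, and a UMI was seen in 10.8% and 9.64% of them. In the recipient, 15 of the 35 Pdcd1 UMIs and 21 of the 92 Lag3 UMIs lay in 3 marker-positive cells that shared the receptor segments Trbv5 and Trav12-2, singled out after the values were seen. Without these 3 cells the recipient ratio against all other cells was 0.0019 for Pdcd1 and 1.08 for Lag3.

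Genes outside the rule also differed with the number of marker genes a cell carried. In the recipient, Id3 had 70.1 CPM in cells with no marker gene, 109.9 with 1, 146 with 2 and 428 with 3 or 4, all cells passing the other filters. Lag3 had 3.01, 15.9, 76.3 and 72.4 CPM in the same order, and Myb 4.12, 8.84, 32.5 and 66.4. In the donor, cells with 0, 1 and 2 marker genes had 58.9, 95.7 and 249 CPM of Id3, 2.28, 8.74 and 59.4 of Lag3, and 3.03, 11.9 and 40.5 of Myb. So in both libraries each of these genes was higher in cells with 2 marker genes than in cells with 1, and higher with 1 than with none. These genes thus already rose below the line of the rule. Past it, Id3 and Myb rose further in the recipient and Lag3 did not. The donor had 2 cells with 3 or 4 marker genes, with 0 CPM of Id3 and Myb and 1003 of Lag3, too few to read.

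Gene lists were read by how many counted members were 2-fold higher or lower in both libraries, with the medians of their log2 ratios beside those over all genes (0.11 and 0.04). Over all 4646 counted genes, 0.517% were higher and 0.323% lower. Of 3 counted follicular helper genes, 2 were higher (Icos and Slamf6) and Sh2d1a was near equal at 0.09 and 0.12, with medians of 1.24 and 1.63. Of 12 counted regulators of progenitor and stem-like T cells, 2 were higher (Id3 and Myb), and Tcf7 (0.04 and 0.27), Lef1 (-0.05 and 0.36) and Klf2 (-0.42 and -0.41) were not; the list medians were 0.09 and 0.14. One gene was higher in each of 9 counted anergy genes and 4 counted inhibitory receptors (Lag3), 5 counted regulatory T cell genes (Capg), 8 counted costimulatory receptors (Icos), 14 counted naive and 4 counted immature thymic genes (Itgae) and 14 counted homing genes (Itgae), 12 counted interferon genes (Ifi27l2a) and 6 counted cell cycle genes (Birc5). The medians of these 9 lists lay between -0.13 and 0.77 over both libraries, the highest being those of the regulatory T cell genes in the recipient. For 2 of these lists they depended on the comparison. Against cells passing the same filters, inhibitory receptors had medians of 1.94 and 0.96, in place of 0.15 and 0.07. Regulatory T cell genes had 2.05 and 1.35, in place of 0.77 and 0.57. The other lists among these 9 lay between -0.17 and 0.90 in that comparison. Among anergy genes, Nt5e (CD73) had ratios of 0.52 [-0.06, 1.05] and -0.05 [-0.84, 0.63], and Nrp1, which fell below the CPM limit for counting, 3.08 [2.50, 3.62] and 2.59 [1.43, 3.56]. Against all other cells, no counted gene was 2-fold apart among 9 genes induced by T cell receptor signals and 20 negative regulators of that signal. The same held for 14 genes of the receptor complex, 13 NF-kappaB genes, 14 MHC class I genes, 12 cytokine receptors and 12 immediate early genes. It also held for 5 exhaustion regulators, 9 apoptosis genes and 4 genes of the CD8 and CD4 lineage choice. The medians of these lists lay between -0.17 and 0.60. This too depended on the comparison. Against cells passing the same filters, Tnfrsf9, a receptor-induced gene, had ratios of 2.65 and 1.35, and Tox was past 2-fold as given above. Exhaustion regulators had medians of 0.74 and 0.79 there, and the other lists lay between -0.14 and 0.58.

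Myb was the sole counted gene of the marker list, the others being in the rule. Of 15 counted memory genes, 5 were lower in both libraries (Ccl5, Gzmm, Il18r1, Samd3 and Tbx21) and none higher, against 0.323% lower over all counted genes. The medians were -0.68 in the recipient and -0.82 in the donor. Gzmm, a granzyme gene, had 4.09 CPM in marker-positive and 37.0 in other recipient cells and 16.1 against 101 in the donor, and Tbx21, which encodes T-bet, had 17.2 against 41.4 and 30.8 against 66.5. Further lower genes were 1 of 9 counted cytotoxic genes (Gzmm, medians -0.29 and -0.49), 1 of 4 counted NK receptor genes (Klrc1, medians -1.29 and -0.04), 1 of 5 counted cytokine genes (Ccl5, medians 0.50 and -1.67) and 1 of 14 counted homing genes, the list in which Itgae was higher. The filters on Gzmk, Fcer1g and Klrb1c bear on these lists. Against cells passing the same filters, the medians were -0.48 and -0.77 for memory and 0.22 and -0.25 for cytotoxic genes. They were -0.67 and -0.01 for NK receptor genes and 0.59 and -0.91 for cytokine genes. Ccr7, a homing receptor of naive T cells, was not 2-fold apart, at 309.9 CPM in marker-positive against 301 in other recipient cells and 351 against 245 in the donor. Cd44 had ratios of 0.23 [-0.19, 0.62] and -0.25 [-0.79, 0.24].

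Some genes of these lists were too low to be counted. Tnfrsf4 (OX40), a costimulatory receptor of activated and regulatory T cells, had 25.3 CPM in marker-positive and 2.60 in other recipient cells and 14.7 against 1.59 in the donor, ratios of 3.28 and 3.21. Irf4, a factor induced by T cell receptor signals, had ratios of 2.23 and 3.92, and Egr2 of 1.43 and 3.39. Among the counted genes of the NF-kappaB list the medians were 0.36 and 0.60, with Relb at 0.79 and 0.72 and Nfkbia at 0.42 and 0.71. Irf4 and Egr2 rest on few UMIs, at 8.99 and 8.18 CPM in recipient and 14.7 CPM each in donor marker-positive cells.

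Signs of other cell types were read from 8 lists. Of 11 B cell markers, 7 were at 0 UMIs in marker-positive cells of each library, and the list summed to 317 CPM in marker-positive and 222 in other recipient cells and to 207 against 185 in the donor, most of it Ighm. Of 12 myeloid markers, 8 (recipient) and 9 (donor) were at 0, Lyz2, Csf1r and C1qa among them, and the sums were 103 against 107 and 80.3 against 102 CPM, nearly all of it Cst3. The NK list summed to 116 against 164 and 64.2 against 128 CPM with Ncr1 at 0, and the NKT and MAIT list to 464 against 860.1 and 868 against 1488 CPM, mostly Ly6c2, with Zbtb16 at 0. Sums were 0 against 2.20 and 5.35 against 13.1 CPM for gamma delta T cells. Trdc, the gene of the delta receptor chain, went the other way in the donor, at 4.01 against 2.20 CPM. It was seen in 3 donor marker-positive cells (3.61%), against 0.884% of other donor cells. Its donor log2 ratio of 0.87 [-1.43, 2.44] had an interval that held 0. In the recipient, Trdc was at 0 UMIs in marker-positive cells and in 0.879% of other cells. The sums were 7.36 against 8.14 and 14.7 against 8.84 CPM for erythroid cells and platelets. For plasma cells they were 29.4 against 30.3 and 33.4 against 24.6 CPM. The CD4 T cell list stood apart, at 55.6 against 5.97 CPM in the recipient and 20.1 against 3.95 in the donor, through Foxp3, Tnfrsf4 and Cd40lg, with Cd4 itself at 0. Zbtb7b, the factor that sets the CD4 fate, had 4 UMIs in recipient and 1 UMI in donor marker-positive cells, and Runx3, its CD8 counterpart, 65.4 and 73.6 CPM against 92.6 and 95.7 in other cells.

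Foxp3, the factor that defines regulatory T cells, was seen in 16 of 157 recipient marker-positive cells (27 UMIs, 22.1 CPM) and in 0 of 83 donor ones. In other cells it was seen in 24 recipient and 17 donor cells. At 3500 UMIs per cell, Foxp3 was found in 6.85% of recipient marker-positive cells (3.33 to 12.2) and 0.141% of other recipient cells, and in 0 of 80 donor cells (a share of up to 3.75% at a limit of 3 counts, and of up to 4.51% by the exact interval). Il2ra, the CD25 chain of the IL-2 receptor, followed the same split, with 35 UMIs in 22 recipient cells and 0 UMIs in donor cells. Against a limit of 3 counts in the donor, the recipient over donor log2 ratio was at least 2.46 for Foxp3 and at least 2.83 for Il2ra.

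**Figure D3:**
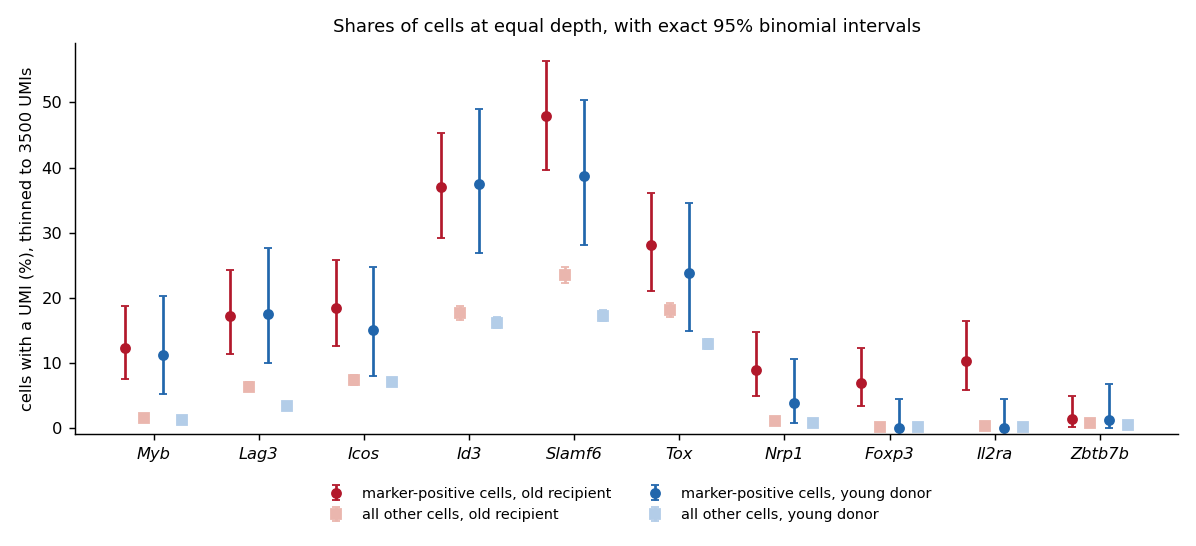
Share of cells with a UMI after each cell was thinned to 3500 UMIs, for 10 genes outside the rule, in marker-positive (circles) and all other cells (squares) of the old recipient (red) and young donor (blue), with exact 95% binomial intervals. Myb, Lag3, Id3 and Slamf6 were found in a larger share of marker-positive cells in both libraries, while Foxp3 and Il2ra were found in marker-positive cells of the recipient alone, at 6.85% and 10.3%.

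The 16 cells with Foxp3, a group chosen after the values were seen, differed from the 141 recipient cells without it in more than that gene. They held 1202 CPM of Izumo1r, against 211 in the cells without Foxp3, 620.5 against 157 of Ctla4 and 336 against 95.1 of Ikzf2. Among genes outside the rule, they held 388 against 43.6 CPM of Itgae, 465 against 53.2 of Capg, 284 against 11.3 of Il2ra, 233 against 11.3 of Tnfrsf4 and 103 against 23.6 of Nrp1, a surface receptor of thymus-derived regulatory T cells. Not all activation and inhibitory genes were seen at a higher level in them. They held 38.8 against 54.1 CPM of Tnfrsf9, 25.9 against 78.5 of Lag3 and 51.7 against 63.7 of Cd200. In these 16 cells 38.8 CPM was 3 UMIs, so these values rest on few UMIs and their direction is uncertain. The cells with Foxp3 had 0 CPM of Myb and of Ly6c2, against 44.5 and 451, and for Myb the level in the cells without Foxp3 was itself near that of 3 UMIs. Their Cd8a level was 957 against 619.7 CPM and that of Cd8b1 995 against 1420.0, Cd4 was at 0, and their median depth was 4982 UMIs against 6754. Zbtb7b had 3 of its 4 recipient UMIs there, 38.8 against 0.873 CPM. With them left out, the recipient ratio of marker-positive over other cells was 0.55 for Itgae and 0.83 for Capg, while those of Id3 (1.54), Icos (1.73), Lag3 (1.503) and Myb (3.03) moved by less than their intervals.

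Helios RNA also divided the marker-positive cells, a split made after values were seen. In the recipient, the 67 cells with Ikzf2 held 118 CPM of Tnfrsf9, against 9.56 in the 90 cells without it, 48.9 against 15.02 of Pdcd1, 99.9 against 58.7 of Lag3 and 173 against 589.7 of Ly6c2. The donor values for 12 cells with Ikzf2 and 71 without were 75.2 against 10.5 CPM of Tnfrsf9, 138 against 8.99 of Pdcd1, 238 against 47.9 of Lag3 and 451 against 845 of Ly6c2. Ctla4 was at 196 against 180.2 CPM in the recipient and 113 against 200.7 in the donor. Ctla4 and Ikzf2 are both in the rule, and a cell without Ikzf2 had to carry 2 of Izumo1r, Cd200 and Ctla4. The rule thus bears on the Ctla4 values, and nothing is drawn from them. Part of the rest lay in few cells. Without the recipient cells that shared Trbv5 and Trav12-2, Pdcd1 was at 18.7 CPM in cells with Ikzf2 and 15.1 in cells without it, Lag3 at 58.1 and 59.2, and Tnfrsf9 at 108 and 9.64. Without the donor cells that shared Trbv19 and Trav13-1, Pdcd1 was at 135 and 9.197 CPM, Lag3 at 102 and 33.7, and Tnfrsf9 at 16.9 (1 UMI) and 10.7 (7 UMIs). Their median depth was 6228 against 6802 UMIs in the recipient and 5421.5 against 8382 in the donor.

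Clustering of all kept cells without the rule's genes and Myb gave 16 clusters, and no single one held the marker-positive cells. Cluster 8, led by Nrp1, S100a4, Izumo1r and Capg, held 46 (29.3%) of the recipient and 14 (16.9%) of the donor marker-positive cells. Cluster 0, led by Igfbp4 and Ccr9, held 38 (24.2%) and 16 (19.3%), cluster 7, led by Myb and Dapl1, 33 (21.02%) and 18 (21.7%), and cluster 13, led by Nr4a1 and Egr1, 11 (7.01%) and 7 (8.43%). Izumo1r and Myb led clusters they were not used to build. Relative to cluster size, the marker-positive fraction of cluster 8 was 13.8% (10.3 to 18.0) among recipient cells and 6.31% (3.49 to 10.4) among donor cells, against 11% and 10.1% for cluster 13, 7.62% and 3.33% for cluster 7, and 2.54% and 2.37% for cluster 0. Cluster 3, led by Gpr15 and Ly6c2, held none of them, of 290 recipient and 1180 donor cells.

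**Figure D4:**
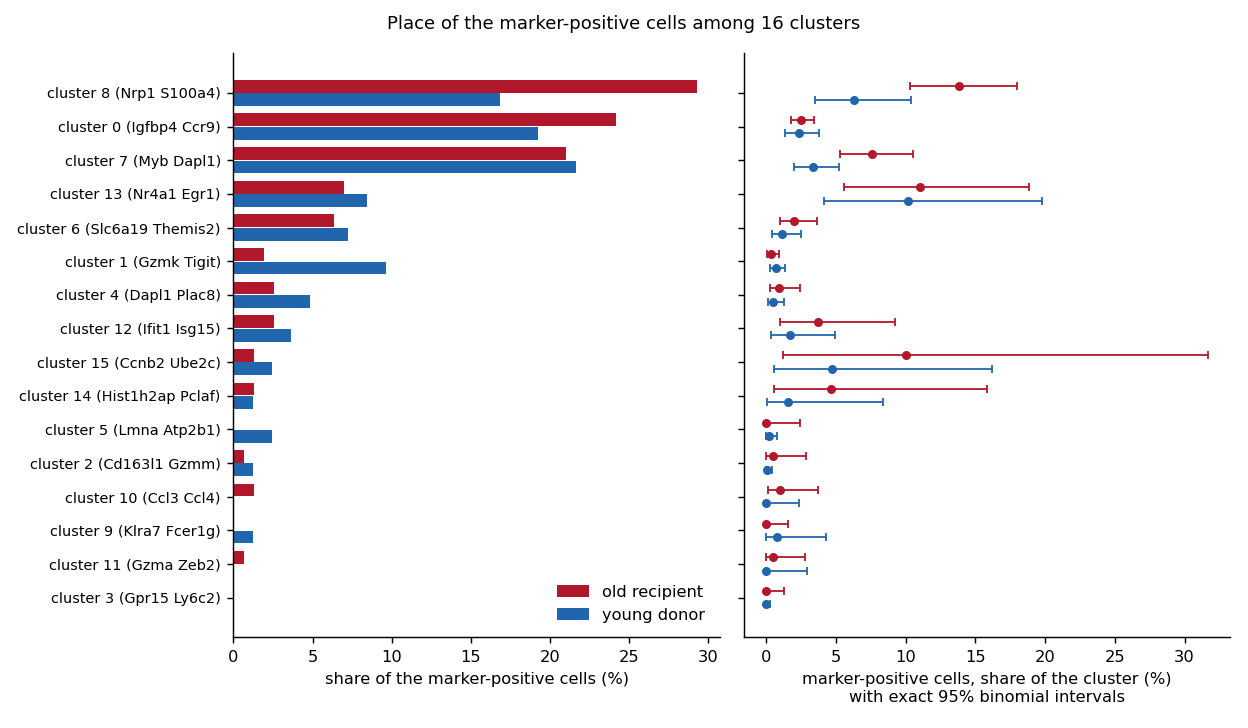
Left, share of the marker-positive cells of the old recipient (red) and young donor (blue) that lay in each of 16 clusters, named by number and leading genes. Right, marker-positive cells as a share of each cluster, with exact 95% binomial intervals. Clusters 8, 0 and 7 held 29.3%, 24.2% and 21.02% of recipient and 16.9%, 19.3% and 21.7% of donor marker-positive cells.

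Marker-positive cells differed by the cluster they lay in. Of the 5 clusters that held the most of them, cluster 8 had the highest Izumo1r, 670.2 CPM for recipient and 272 CPM for donor cells, and the highest Nrp1 (121 and 77.8 CPM), and 15 of the 16 cells with Foxp3 lay there. Its Lag3 was at 114 CPM in recipient cells, against 124 in cluster 13, and at 324 CPM in donor cells, or 189.9 CPM without those that shared Trbv19 and Trav13-1. In cluster 0 they carried Igfbp4, an insulin-like growth factor binding protein of naive CD8 T cells (582 and 621 CPM), with Ccl5 at 88.5 and 15.1 CPM, Lag3 at 6.81 and 0 CPM and Myb at 0 and 7.57 CPM. In cluster 7 they carried Myb (76.1 and 60.0 CPM), Ly6c2 (708 and 1093 CPM) and Ccl5 (1284 and 756 CPM). Myb was not particular to cluster 7, since it stood at 154 and 77.3 CPM in cluster 13. Cluster 13 had the most Id3 of these 5, 587 and 985 CPM, and Nr4a1, an early gene of T cell receptor signals, at 82.4 and 96.6 CPM. The rule thus gathered cells with naive-associated RNA, cells with regulatory or activated RNA and a group with Myb, Ly6c2 and Ccl5 RNA. Since cells were grouped by their RNA, the differences between clusters are a description.

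Receptor segments were read from the expression libraries, as the Trbv or Trav gene with the most UMIs in a cell. A Trbv was found in 152 recipient and 82 donor marker-positive cells and was spread over 21 and 20 segments. In the recipient the most common were Trbv13-1 and Trbv29, each in 14 cells (9.21%), against 6.52% and 7.77% of other cells. In the donor it was Trbv19, in 15 cells (18.3%, 10.6 to 28.4), against 8.27% of other donor cells and 7.24% of recipient marker-positive cells. Of the 63 donor marker-positive cells with both segments, 6 carried Trbv19 with Trav13-1, against 0.611% of other donor cells. The recipient had 99 distinct pairs among 109 cells, with no pair in more than 3 cells.

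Those 6 donor cells, singled out after the values were seen, carried a large part of the donor's signal for some genes. They held 23 of the 51 Lag3 UMIs and 12 of the 29 Cd200 UMIs of donor marker-positive cells, and 5 of them lay in cluster 8. Without them Trbv19 was in 11.8% of donor marker-positive cells, and the donor Lag3 ratio of marker-positive over other cells was 1.68, against 2.47 with them. Id3 (1.98) and Myb (3.28) moved by less than their intervals. A shared pair of segments does not show a shared clone, and joining sequences were not analysed here.

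Between the libraries, marker-positive cells of the recipient and donor differed by 2-fold in few of the counted genes. Of 4665 genes with a mean of at least 20 CPM in marker-positive cells, 67 (1.44%) were at least 2-fold higher and 27 (0.579%) at least 2-fold lower in the recipient. In all other cells, which are far more numerous, 17 (0.364%) and 1 (0.0214%) of the same genes were. The median log2 ratio of recipient over donor was 0.09 in marker-positive and 0.04 in other cells. As 1 UMI was worth 0.818 CPM in recipient and 1.34 CPM in donor marker-positive cells, genes near the limit rested on few UMIs. The largest holder of the cells was cluster 8 in the recipient and cluster 7 in the donor. The donor order rests on few cells, 18 in cluster 7, 16 in cluster 0 and 14 in cluster 8. Cluster 7 held like shares in both libraries, 21.02% and 21.7%. Cluster 8 held 29.3% of the recipient's cells, or 21.99% without those with Foxp3, against 16.9% of the donor's.

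Ikzf2 had the clearest difference with many cells behind it. It had 110.4 CPM (135 UMIs in 67 cells) in the recipient and 24.1 CPM (18 UMIs in 12 cells) in the donor, a log2 ratio of 2.20 [1.48, 2.99]; in other cells the ratio was 2.23 [2.00, 2.47], so the gap was as large outside these cells. Because Ikzf2 is part of the rule, this is a description. Tnfrsf9 (4-1BB), a costimulatory receptor induced by activation, had 53.1 and 17.4 CPM, a ratio of 1.61 [0.74, 2.60], against 0.52 in other cells. It was detected in like shares of the cells, 20 in the recipient (12.7%) and 10 in the donor (12.05%). Its gap thus did not lie in a larger share of cells with it, and 58 of its 65 recipient UMIs lay in 15 cells with Ikzf2. Btg2, an antiproliferative gene, had 177 and 68.2 CPM, a ratio of 1.37 [0.93, 1.84], against 1.04 [0.98, 1.10] in other cells. Itm2a, a membrane protein gene, had 67.0 and 24.1 CPM, a ratio of 1.48 [0.73, 2.30], while in other cells it was -0.44 [-0.55, -0.33]. Pdia6, a protein disulfide isomerase gene, and Trim28, a chromatin corepressor gene, had ratios of 1.36 [0.72, 2.05] and 1.13 [0.51, 1.81], against 0.05 and 0.02 in other cells. Without the top cell of each gene all of these stayed above 2-fold, at 2.44 for Ikzf2, 1.85 for Tnfrsf9, 1.44 for Btg2, 1.41 for Itm2a, 1.34 for Pdia6 and 1.14 for Trim28.

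Other recipient-high genes came down to single cells. Ccl3, a chemokine, had 134 UMIs in recipient and 2 in donor marker-positive cells, and 132 of the 134 lay in 2 cells. Ccl4, a related chemokine gene, had 268 and 15 UMIs, with 246 of the 268 in 2 cells. Without the 3 recipient cells that shared Trbv5 and Trav12-2, the recipient over donor ratios were -0.69 for Ccl3 and -0.14 for Ccl4. The histone gene Hist1h2ap had 473 and 57 UMIs, 400 of the 473 in 1 cell, and its ratio of 2.34 became -0.01 when the cell with the most UMIs of the gene was left out of each library. Pclaf, a replication gene, had 64 and 17 UMIs, 56 of the 64 in 1 cell, and its ratio of 1.20 became -0.03. These 4 genes therefore say little of the other cells.

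The lower genes in the recipient were led by the same kind of case and by 1 broad difference. Xcl1, a chemokine for cross-presenting dendritic cells, had 50 UMIs in recipient and 205 in donor marker-positive cells, 177 of the 205 in 1 cell, and its ratio of -2.75 became -0.20 without the top cell. Ctse, which encodes the protease cathepsin E, had 24.5 CPM in recipient and 96.3 CPM in donor marker-positive cells, in 26 and 45 cells, a ratio of -1.97 [-2.64, -1.34] that stayed at -1.97 without the top cell and was -2.20 [-2.31, -2.08] in other cells. Dapl1, a gene of naive and stem-like CD8 T cells, had 298 and 618 CPM, a ratio of -1.05 [-1.25, -0.85], against -0.29 [-0.33, -0.26] in other cells, and -0.98, short of 2-fold, without the top cell. Gramd3 had a ratio of -1.16 [-1.67, -0.65] and Ly6c2 one of -0.93 [-1.10, -0.75], with -0.62 and -0.84 in other cells. The remaining named genes, Ctla2a (-0.88), Trim30a (-0.85), Ascc1 (-0.83), Mfsd10 (-0.82) and Rel (-0.82), had intervals that reached to between -0.45 and -0.13.

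**Figure D5:**
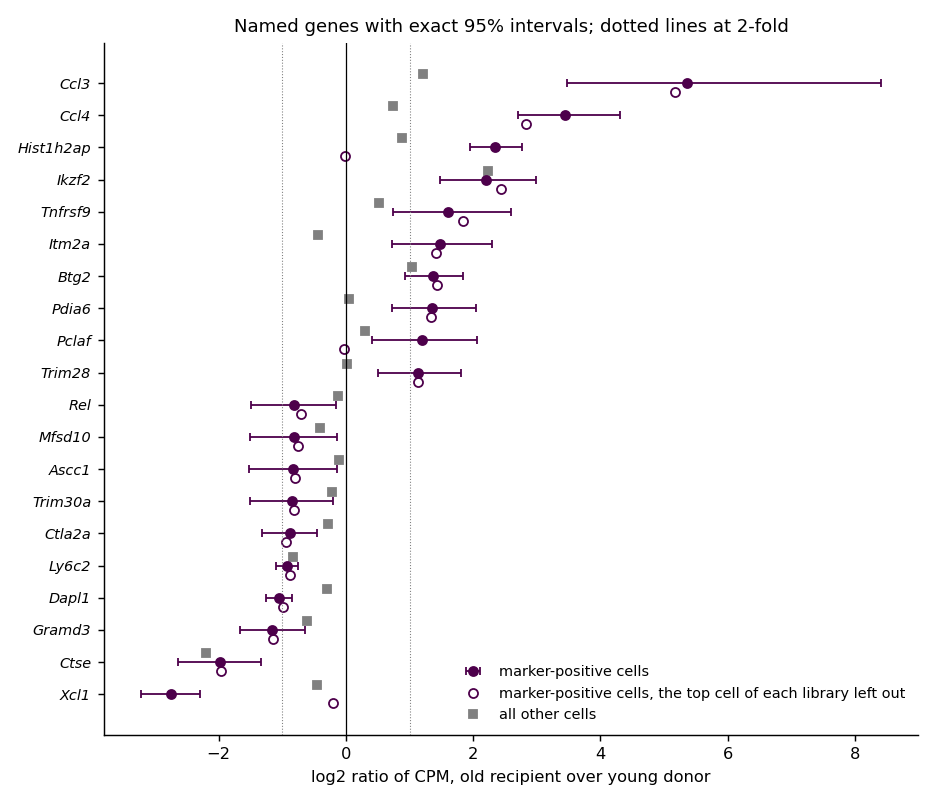
Log2 ratio of CPM in the old recipient over the young donor for the 20 genes named by rule, in marker-positive cells (filled circles with exact 95% intervals), in the same cells with the cell highest in that gene left out of each library (open circles) and in all other cells (squares). Hist1h2ap, Pclaf and Xcl1 came to -0.01, -0.03 and -0.20 without the top cell, while Ikzf2 (2.44) and Ctse (-1.97) kept their sizes.

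Of the genes of the rule, Izumo1r had a recipient over donor log2 ratio of 0.81 [0.50, 1.12] in marker-positive cells and Cd200 one of 0.70 [0.06, 1.37], beside that of Ikzf2. In other cells the ratios of Izumo1r and Cd200 were larger, at 2.07 and 1.87. Among marker-positive cells without Foxp3, Izumo1r was at 211 CPM in the recipient and 157 CPM in the donor. Of the 12 genes named as higher than in other cells, the ratios lay between -0.15 (Id3) and 0.45 (Tspan32), and the interval of Tspan32 [0.04, 0.88] was the sole one that did not hold 0. The recipient over donor log2 ratio in marker-positive cells was 0.27 [-0.24, 0.81] for Icos, -0.15 [-0.42, 0.13] for Id3, 0.14 [-0.37, 0.66] for Lag3, 0.05 [-0.62, 0.76] for Myb, 0.16 [-0.15, 0.49] for Slamf6 and -0.11 [-0.26, 0.03] for Ifi27l2a. Each of these intervals held 0, and differences of up to 0.81 for Icos or 0.76 for Myb lie inside them. For Lag3 the ratio was 0.93 without the 6 donor cells that shared Trbv19 and Trav13-1. In other cells the same ratios were 0.05, 0.23, 1.17, 0.33, 0.59 and 0.57. The ratios of Lag3 and Slamf6 were thus larger among other cells than among marker-positive ones, a difference that was not tested. By list, recipient-high genes were 2 of 6 counted regulatory T cell genes (Tnfrsf9 and Tigit), 2 of 6 counted cytokine genes (Ccl3 and Ccl4), 1 of 10 counted anergy genes (Nrp1), 1 of 5 counted inhibitory receptors (Tigit), 1 of 13 counted immediate early genes (Btg2), 1 of 8 counted cytotoxic genes (Gzma) and 1 of 9 counted cell cycle genes (Mcm5), while Tnfrsf9 also stood for 1 of 12 counted genes induced by T cell receptor signals and 1 of 9 counted costimulatory receptors. Recipient-low genes were 2 of 13 counted memory genes (Xcl1 and Ifitm10), 1 of 15 counted naive genes (Dapl1), 1 of 3 counted NK receptor genes (Klrk1) and 1 of 6 counted cytokine genes (Xcl1). Over all 4665 counted genes, 1.44% were recipient-high and 0.579% recipient-low. Most UMIs of Ccl3, Ccl4 and Xcl1 lay in 1 or 2 cells, as given above. The list medians were 0.68 for regulatory T cell, 0.28 for cytokine and -0.35 for memory genes. In other cells these medians were 0.44, 0.06 and -0.51.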

How the data were processed

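CD8 T cells were profiled by droplet 5' single-cell RNA sequencing in 1 library per group. The deposited matrices hold raw UMI counts per gene and barcode, as the authors' pipeline wrote them with software version 3.0.2 per the file headers. Cell Ranger, Seurat and mm10 are named per the submitters' processing notes; whether doublets were removed before deposit is not given in the sources used here.

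Barcodes with at least 500 detected genes and at most 10% mitochondrial UMIs were kept, which left 5619 of 6174 in the old recipient and 8001 of 8588 in the young donor, from 41504941 and 65006187 UMIs. Doublets were scored against simulated ones and removed only in an alternative. UMIs were summed per library over marker-positive cells (1223156 and 747388 UMIs) and over all other kept cells, scaled to CPM and compared as log2 ratios with 95% exact Poisson intervals; shares have exact binomial (Clopper-Pearson) intervals. These cover counting error only. A count of 0 was set to a limit of 3 counts. Genes were counted at a mean of at least 20 CPM, and "2-fold" means 2-fold in each library, since no test is possible with 1 library per group. Shares of cells with a UMI were compared after thinning to 3500 UMIs, which left out 11 recipient and 3 donor marker-positive cells.

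Clusters came from 2000 variable genes, 30 components and the Leiden method at resolution 1, without the genes of the rule and Myb. The text names 12 genes per direction for marker-positive over other cells and 10 per direction between the libraries, plus a set of 20 genes always named, the genes of the rule and up to 4 genes per list. The first were ranked by the smaller of the 2 libraries' ratios among genes with at least 50 CPM in either kind of cell in each library and the same direction in both, and the second by the ratio among genes with at least 50 CPM in a library and 20 UMIs over both; receptor and immunoglobulin segments, ribosomal protein and mitochondrial genes and unnamed gene models were left out. Some genes these rules name are not reported here. Other genes named were chosen after their values were seen. The members and the 34 gene lists, 8 of them markers of other cell types, were chosen with earlier results of these data known. Positions are GENCODE M21 on GRCm38 (mm10). Scripts were tested on simulated data and run with Python 3.11.15, numpy 2.4.6, scipy 1.17.1, pandas 2.3.3, scikit-learn 1.9.0, igraph 0.11.9, leidenalg 0.10.2 and matplotlib 3.10.9. Alternatives covered cell filters, doublets, thinning, the number of marker genes, scaling, the CPM limit and which cells were left out.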

Additional observations from a re-analysis of the deposited data

Results flagged for a closer look

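Of the genes named above, 4 differed in direction between the libraries with both 95% intervals clear of 0, higher in marker-positive than in other cells in the old recipient and lower in the young donor; these differences were not tested. The log2 ratios were 1.75 and -2.39 for Ccl3 and 1.04 and -1.67 for Ccl4, of which 132 of 134 and 246 of 268 recipient UMIs lay in 2 cells. They were 0.64 and -0.67 for Pdia6, seen in 68 recipient and 21 donor marker-positive cells, and 0.44 and -0.68 for Trim28, seen in 65 and 20.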

How the results depend on the processing

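No paired analysis was possible because each group has 1 library. The alternatives that leave out the top cell of a gene, or the cells with Trbv19 and Trav13-1 or with Trbv5 and Trav12-2, were chosen after seeing the data. The recipient's share of marker-positive cells (2.79%) stayed above the donor's (1.04%) in every setting run, at 1.70% and 0.491% with cells thinned to 3500 UMIs before the rule, 0.765% and 0.025% with 3 marker genes required, and 0.819% and 0.175% for cells of cluster 8 alone. Counts of genes depended more on the settings. Against 24 genes higher and 15 lower in marker-positive cells, thinning gave 79 higher, 3 marker genes 149 and 3, totals without large gene families 42 and 32, a limit of 50 CPM 9 and 3, a limit of 5 CPM 70 and 56, and cluster 8 alone 186 and 32. Other cells passing the same filters gave 8 lower, and leaving out top cells 28 lower. Against 67 genes higher and 27 lower in the recipient, removing doublets gave 110 higher, thinning 481 and 438, 3 marker genes 1430 lower, leaving out cells with B cell or myeloid markers 117 and 82, totals without large families 164 and 102, 50 CPM 15 and 6, 5 CPM 533 and 243, and cluster 8 alone 633 and 652. Cluster 8 held 21.99% of recipient cells without Foxp3 cells, and with 3 marker genes 41.9% of recipient and 100% of the 2 donor cells. Trbv19 was in 100% of those 2 cells and in 35.7% of donor cells of cluster 8, and 4 in place of 10 of 20 always-named genes were in a larger share of marker-positive cells in both libraries with 3 marker genes.

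Single genes that changed sign were the following. Thinning before the rule gave -0.067 for Capg in the donor and -0.39 for Hist1h2ap between libraries. With 3 marker genes, Txndc5 was 0.79 in the donor, and between libraries Hist1h2ap was -1.57, Nrp1 -3.99 and Tnfrsf9 -0.76. Zbtb7b was -0.89 in the recipient and -0.62 between libraries without Foxp3 cells, and -0.00082 between libraries without cells with B cell or myeloid markers. In cluster 8 alone, Il18r1 was 0.23 in the recipient, and between libraries Ccl3 was -2.78, Ccl4 -0.45, Dapl1 0.0021, Hist1h2ap -1.67 and Xcl1 0.55. Without top cells, Hist1h2ap was -0.013 and Pclaf -0.033, and without the Trbv19 and Trav13-1 cells Xcl1 was 0.16, and without the Trbv5 and Trav12-2 cells Ccl3 was -0.69 and Ccl4 -0.14. The cause was not tested. With 83 donor cells, 1 UMI was worth 1.34 CPM, which limits what could be seen of low genes.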
